A study of Mus musculus with 3 samples.

Results

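The 10 genes described here belong to the transforming growth factor beta (TGF-beta) pathway and were measured by RNA-seq in mouse T-helper 1 (Th1) cells, the CD4 helper T cells that answer intracellular pathogens. They were chosen by name and matched by gene identifier in the deposited gene tables: the ligand Tgfb1, the receptors Tgfbr1 and Tgfbr2, the signal carriers Smad2, Smad3 and Smad4, the inhibitor Smad7 and the nuclear repressors Ski, Skil and Tgif1. All 10 were found among the 50600 genes of the tables. The labels describe primary cells of the C57BL/6NJ strain, of unknown age and with no treatment given, and link a differentiation protocol for CD4+ T cells. The file headers add a time point of 2 hours, whose starting event no source used here states. The 3 libraries are biological replicates 1, 2 and 3 of this 1 group, so no condition could be set against another. They share 1 donor entry, and no source used here ties them to different mice, so p-values measure only the spread between these samples, which may be technical.

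TGF-beta is secreted as a latent dimer and, once freed, binds the type II receptor, which then phosphorylates the type I receptor. The activated type I receptor phosphorylates Smad2 and Smad3, which join Smad4 and enter the nucleus to regulate genes, among them those of their own inhibitors Smad7 and Skil. In CD4 T cells the pathway is known for restraining Th1 differentiation and for supporting regulatory T cells and, with interleukin-6, Th17 cells.

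The libraries held 2950658 to 4442901 counts, and the 10 genes together 2506 to 5440 of them. All 9 T cell markers examined reached 1 TPM (a count corrected for exon length and for the library's total) in every library, with list medians of 126 to 324 TPM. Of the Th1 markers, Stat4, a signal transducer of interleukin-12, had 15.9 ± 6.49 TPM (SD, n = 3), Tbx21, the Th1 master regulator, 2.53 ± 0.997, and Ifng, the signature cytokine, at most 2 counts in a library. Il12rb2 had 11.9 ± 3.97 TPM but is opposed by Serbp1, and Il18r1, with no gene opposite, had 4.98 ± 1.09. In all, 4 of 6 Th1 markers reached 1 TPM in every library. In the deposited counts the T cell part of the label was thus matched by its markers. Tbx21 was low there and Ifng below the counting floor of 3 counts. Reads of a gene's own strand may be missing, as described below, so low counts do not show low expression. Of 2 CD8 T cell genes, Cd8b1 had 6.73 ± 3.36 TPM and Cd8a 0.133 ± 0.126. All but Ikzf2 of 5 regulatory T cell genes reached 1 TPM in every library. Il2ra, a chain of the interleukin-2 receptor that activated T cells also carry, had 44.5 ± 21.1 TPM and the inhibitory receptor Ctla4 10.9 ± 6.56, both with no gene opposite. Foxp3, the regulator of these cells, had 59.6 ± 6.85 TPM from 491, 412 and 457 counts in replicates 1, 2 and 3. Ccdc22, with 40, 38 and 39 counts, overlaps Foxp3 on the other strand. Whether reads of Ccdc22 were counted for Foxp3 was not tested. Ikzf2 had 0.256 ± 0.0967 TPM and is overlapped by Gm29114. Of 4 genes of platelets, which store TGF-beta1, Pf4, Ppbp and Gp1bb had no count and Itga2b had 2 to 6, a summed level of 0.216 to 0.503 TPM. The B cell list had a summed level of 27.0 to 48.7 TPM that came from Cd79a alone, with no count for Ms4a1, Cd79b and Pax5. Csf1r, a myeloid gene, had 1802, 1179 and 1455 counts. Hmgxb3, with 353, 138 and 130 counts, overlaps Csf1r on the other strand. The myeloid list had a summed level of 137 to 181 TPM, nearly all from Csf1r, with 7.23 ± 1.39 TPM of Cd68 and no count of Lyz2. The part of such cells in the levels of the 10 genes was not tested. No count in a library allows up to 0.675 to 1.02 CPM by counting error alone.

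Genes of the other strand bear on every level in these tables. The counts were made with a strand setting under which mt-Nd6, a subunit of respiratory complex I, reached 23326 to 36098 TPM against a median of 296 to 600 TPM for the 12 mitochondrial coding genes of the other strand. If that setting was opposite to the library, reads of a gene's own strand would be missing from its count, which was not tested. The median hides a split among these 12 genes. No library had a count of mt-Co2, mt-Atp6, mt-Co3 or mt-Nd4l, and mt-Atp8 and mt-Nd3 had at most 2. In contrast, mt-Nd1, mt-Nd2, mt-Co1, mt-Nd4, mt-Nd5 and mt-Cytb had 1093 or more in every library. Because the strand of the libraries was not tested, levels are given as levels of the deposited counts. Differences between genes hold for those counts, and whether they hold for expression was not tested.

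None of the 10 genes shares its place with another. No gene of either strand overlapped the span of any of them, as held for 56.7% of all protein-coding genes and for 44.6% of the 8427 at 1 TPM or more in every library. For overlap on the other strand alone the shares free of it were 66.1% and 54.6%. The nearest gene on the other strand began 221 bases from Tgif1, an unnamed gene with 5, 6 and 1 counts in replicates 1, 2 and 3. Gm20544, 441 bases from Smad7, had 12, 35 and 19 counts against 397, 172 and 264 for Smad7 itself. For the other 8 genes the nearest opposite gene lay 2179 bases or more away.

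The 10 genes were spread over 6 chromosomes (mm10 coordinates of the files). Smad4 (73639009 to 73703780), Smad7 (75367529 to 75395935) and Smad2 (76241580 to 76305731) lie within 2.67 megabases of chromosome 18. Smad3 (63646767 to 63757994) and Tgfbr2 (116084293 to 116175360) are on chromosome 9, Tgfbr1 (47353222 to 47414931) and Ski (155154075 to 155222592) on chromosome 4. Tgfb1 (25687002 to 25705077) is on chromosome 7, Skil (31095058 to 31122577) on chromosome 3 and Tgif1 (70844205 to 70853546) on chromosome 17.

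Every one of the 10 genes reached 1 TPM in every library, where 38.7% of 21764 protein-coding genes did and 32.0% of the 14396 that no gene of the other strand overlaps. The median over the 10 was 30.7, 15.6 and 22.2 TPM in replicates 1, 2 and 3, or 22.8 ± 7.54 on average (SD, n = 3). Tgfb1 was the highest and Tgfbr1 the lowest, 15.0-fold apart in mean TPM. In bulk RNA, fewer cells of a type and less RNA per cell cannot be told apart.

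**Figure D1:**
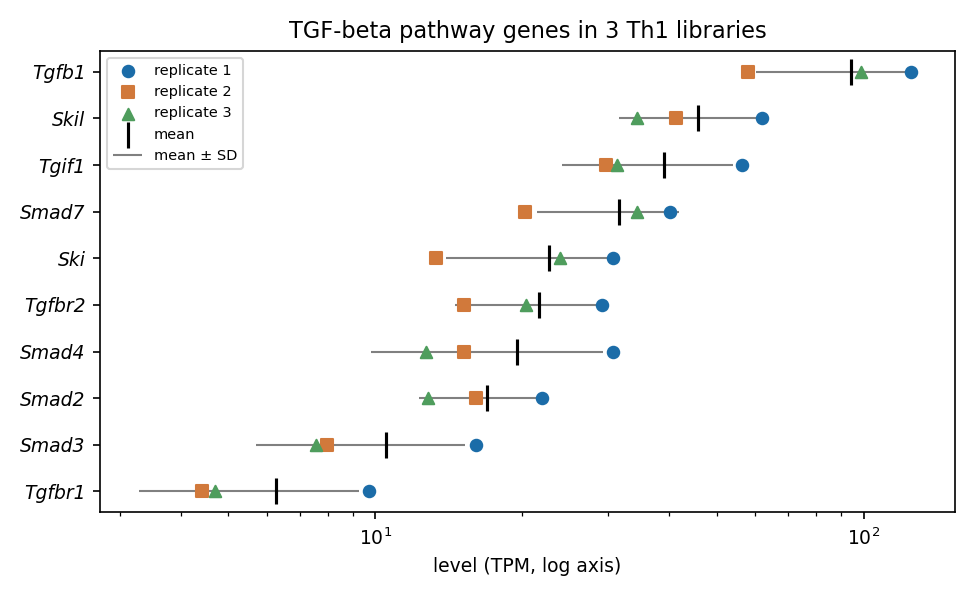
Levels of the 10 genes on a log axis in TPM, 1 symbol per library, with the mean as a tick and the SD as a line. Tgfb1 lies between 58.0 and 125 TPM, above the other 9 genes in every library, and Tgfbr1 between 4.41 and 9.72, below them, and replicate 1 is the highest for each gene in TPM, though not when scaled on genes with no gene on the other strand.

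Tgfb1, the ligand, had 125, 58.0 and 98.8 TPM in replicates 1, 2 and 3, from 1384, 549 and 846 counts. Averaged over libraries, 94.1 ± 33.9 TPM (SD, n = 3), it was above 96.69% of protein-coding genes. The ligand thus had the highest TPM of the 10 genes in each library, even in replicate 2, where it was lowest. That place rests on exon length, since in raw counts Skil stood above it in replicate 2, with 750 against 549.

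The receptors were unequal. Tgfbr2, the type II receptor that binds the ligand, had 29.1, 15.2 and 20.4 TPM from 521, 233 and 284 counts, or 21.6 ± 7.02 TPM on average (SD, n = 3). Tgfbr1, the type I receptor that phosphorylates the SMADs, had 9.72, 4.41 and 4.69 TPM from 139, 54 and 52 counts, a mean of 6.27 ± 2.99. The ranges of the receptors over the libraries did not overlap. Within the libraries the log2 ratio of Tgfbr1 to Tgfbr2 was -1.57, -1.76 and -2.10, a mean of -1.81 ± 0.27 (SD, n = 3), and the summed counts gave 0.296 Tgfbr1 per Tgfbr2 per exon base (exact 95% interval 0.256 to 0.340, counting error only). The exact two-sided sign-flip test over 3 libraries cannot go below p = 0.25, the value it gave here and for every ratio with 1 sign in all 3 libraries (adjusted p = 0.341 over the 15 ratios formed). Ligand stood above the summed receptors by 1.69, 1.56 and 1.97 on the log2 scale, a mean of 1.74 ± 0.21.

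Promoter windows are shown for the ligand and both receptors, which hold the top and the bottom of the order, and for Ski, which with Tgfb1 and Smad7 was highest in replicate 3 once libraries were scaled on unopposed genes. Each runs from 250 bases before to 50 after a RefSeq transcript start on GRCm38.p6 (mm10), 5′ to 3′ on the gene's strand. Capitals mark CAGAC, the core letters of a SMAD-binding element, and GGGCGG, the GC box, each searched on both strands. The windows are Tgfb1 at chr7:25686752-25687051 (plus strand), Ski at chr4:155222486-155222785 (minus), Tgfbr2 at chr9:116175314-116175613 (minus) and Tgfbr1 at chr4:47352972-47353271 (plus).
Tgfb1: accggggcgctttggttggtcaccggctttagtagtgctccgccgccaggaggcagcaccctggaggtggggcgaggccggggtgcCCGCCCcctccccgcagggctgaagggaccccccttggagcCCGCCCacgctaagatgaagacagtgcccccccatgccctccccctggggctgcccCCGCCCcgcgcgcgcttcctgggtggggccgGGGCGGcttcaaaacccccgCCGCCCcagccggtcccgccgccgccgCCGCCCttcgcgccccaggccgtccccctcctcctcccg
Ski: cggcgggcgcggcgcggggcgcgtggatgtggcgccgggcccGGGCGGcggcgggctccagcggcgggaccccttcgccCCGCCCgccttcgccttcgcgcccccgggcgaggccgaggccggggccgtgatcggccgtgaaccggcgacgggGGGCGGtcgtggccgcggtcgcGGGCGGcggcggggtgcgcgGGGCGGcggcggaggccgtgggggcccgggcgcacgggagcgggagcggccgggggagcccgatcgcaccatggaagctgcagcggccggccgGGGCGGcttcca
Tgfbr2: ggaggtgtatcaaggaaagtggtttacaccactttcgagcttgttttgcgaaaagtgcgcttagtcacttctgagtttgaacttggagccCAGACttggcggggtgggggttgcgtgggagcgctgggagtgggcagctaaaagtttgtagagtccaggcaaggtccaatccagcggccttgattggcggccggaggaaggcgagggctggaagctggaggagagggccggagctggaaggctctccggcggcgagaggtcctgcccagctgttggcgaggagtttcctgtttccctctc
Tgfbr1: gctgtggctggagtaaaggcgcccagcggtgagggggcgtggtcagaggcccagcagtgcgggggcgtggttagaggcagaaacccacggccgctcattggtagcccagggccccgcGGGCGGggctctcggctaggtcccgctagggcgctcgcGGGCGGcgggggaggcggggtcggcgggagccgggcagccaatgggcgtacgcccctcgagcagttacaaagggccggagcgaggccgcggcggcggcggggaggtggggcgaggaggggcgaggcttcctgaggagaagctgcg

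The Tgfb1 and Ski windows each held 6 GC boxes and no CAGAC, at 77.0% and 85.33% G and C. The Tgfbr1 window held 2 GC boxes and no CAGAC, and the Tgfbr2 window 1 CAGAC, starting at base -160, and no GC box. Of the other genes looked up, Smad3 had 2 GC boxes and no CAGAC, Tgif1 1 CAGAC and no GC box, and Skil no listed window. Smad2, Smad4 and Smad7 were not looked up. Across 32851 listed windows of 300 bases, 49.6% held CAGAC and 35.7% GGGCGG. The SMAD-element letters were thus in 2 of the 6 windows searched, which leave out 4 of the 10 genes. Matches of these letters are a description, not sites of binding.

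The signal-carrying SMADs all lay below the inhibitor Smad7, with Smad3 the lowest. Smad4, the partner shared by all signalling SMADs, had 30.7, 15.2 and 12.7 TPM in replicates 1, 2 and 3, from 249, 106 and 80 counts. Smad2 had 21.9, 16.1 and 12.8 TPM from 170, 107 and 77 counts, and overlapped the range of Smad4. Smad3, the receptor-activated SMAD that binds DNA directly, had 16.1, 7.98 and 7.55 TPM from 195, 83 and 71 counts. Smad2 exceeded Smad3 in every library, with log2 ratios of 0.44, 1.00 and 0.75, a mean of 0.73 ± 0.28 (SD, n = 3) and 1.58 Smad2 per Smad3 per exon base over the summed counts (exact 95% interval 1.36 to 1.84). That order rests on exon length, since the raw counts of the genes were nearly equal, with a mean log2 ratio of 0.10. Smad4 was below the sum of Smad2 and Smad3 by a mean log2 ratio of -0.55 ± 0.21.

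Smad7, which blocks the type I receptor and recruits ubiquitin ligases to it, had 40.1, 20.3 and 34.4 TPM from 397, 172 and 264 counts, a mean of 31.6 ± 10.2 TPM (SD, n = 3). It lay above each of Smad2, Smad3 and Smad4 in every library. The excess over Smad4 was uneven, with log2 ratios of 0.39, 0.41 and 1.43, a mean of 0.74 ± 0.60. Without replicate 3 the mean was 0.40, so that library sets much of its size.

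The nuclear repressors Skil and Tgif1 followed the ligand in the order of mean levels. Skil (SnoN), which binds SMAD complexes and recruits corepressors, had 62.0, 41.2 and 34.3 TPM from 1316, 750 and 565 counts, a mean of 45.9 ± 14.4 TPM (SD, n = 3). Tgif1, a homeodomain corepressor of Smad2 and Smad3, had 56.5, 29.7 and 31.3 TPM from 695, 313 and 299 counts, a mean of 39.1 ± 15.0. Ski, the relative of Skil, had 30.7, 13.3 and 23.9 TPM from 374, 139 and 226 counts, a mean of 22.7 ± 8.77. Skil exceeded Ski in every library, and their TPM ranges did not overlap. The log2 ratio of Ski to Skil was -1.01, -1.62 and -0.52, a mean of -1.05 ± 0.55, and the summed counts gave 0.490 Ski per Skil per exon base (exact 95% interval 0.451 to 0.531). Tgif1 held a steadier place, at -0.72, -0.88 and -0.89 relative to the summed Ski and Skil, a mean of -0.83 ± 0.10.

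**Figure D2:**
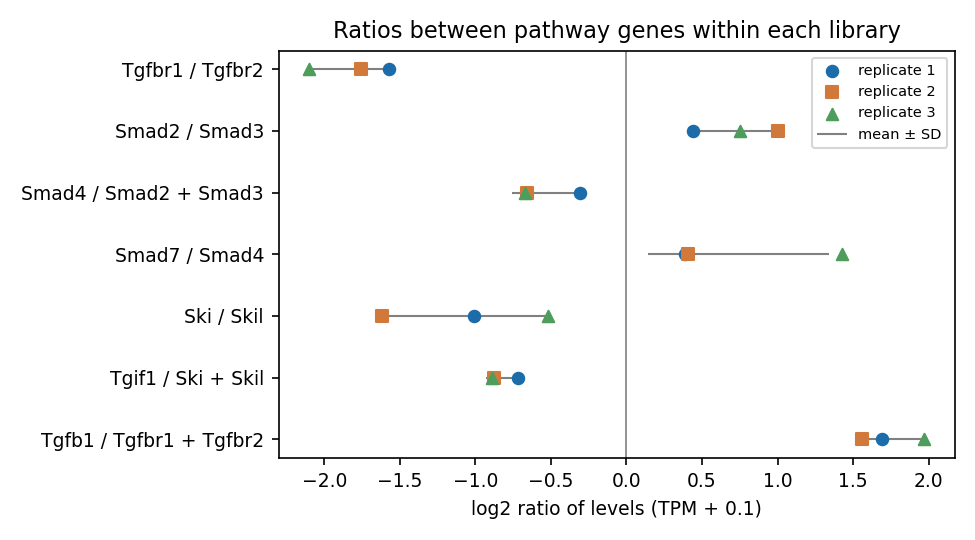
Log2 ratios of levels (TPM + 0.1) between the genes within each library, 1 symbol per library, with the SD as a line. All 7 ratios have 1 sign in the 3 libraries, that of Tgif1 to Ski plus Skil is the tightest with an SD of 0.10, and those of Smad7 to Smad4 and Ski to Skil are the widest with SDs of 0.60 and 0.55.

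The order of mean TPM was Tgfb1, Skil, Tgif1, Smad7, Ski, Tgfbr2, Smad4, Smad2, Smad3 and Tgfbr1. Some neighbours in it kept 1 order in all 3 libraries and others did not. A neighbour pair was called apart when the sign was shared by 3 libraries and the mean log2 ratio exceeded its SD. By this rule Tgfb1 lay above Skil (1.01 ± 0.52), Skil above Tgif1 (0.25 ± 0.20), Smad7 above Ski (0.50 ± 0.11), Smad2 above Smad3 and Smad3 above Tgfbr1 (0.75 ± 0.09). Tgif1 and Smad7 (0.30 ± 0.38), Ski and Tgfbr2 (0.04 ± 0.21), Tgfbr2 and Smad4 (0.20 ± 0.42) and Smad4 and Smad2 (0.13 ± 0.31) did not differ beyond their spread. The middle of the order, from Ski to Smad2, was thus not resolved. Several of these calls rest on the exon length, since without length correction Tgfb1 to Skil became 0.07, and divided by whole gene span Skil to Tgif1 turned to -0.53 and Smad3 to Tgfbr1 to -0.33.

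By role, the inhibitor and the 3 repressors took 44.85%, 47.20% and 44.13% of the summed TPM of the 10 genes in the libraries in turn, which is 45.39% ± 1.61 on average (SD, n = 3). Smad2, Smad3 and Smad4 together took 16.25%, 17.74% and 11.75%. Receptors took 9.19%, 8.84% and 8.94%, the steadiest share, and the ligand 29.71%, 26.22% and 35.18%. The sum of the 4 inhibitor and repressor genes thus exceeded that of the 3 signalling SMADs in every library, though Ski alone was not resolved from Smad4 and Smad2. In replicate 3 the ligand share was highest and the SMAD share lowest.

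Libraries differed in a way that many genes shared. Replicate 1 was the highest for 10 of 10 genes in TPM, as it was for 88.6% of 4602 protein-coding genes at 1 TPM or more with no gene on the other strand, but only for Tgfbr1, Smad3 and Smad4 after scaling on such genes. Replicate 3 was above replicate 2 for 6 of the 10 and for 62.5% of those genes. Genes with an opposed exon took 55.1% of counts in replicate 1 against 69.1% and 67.3% in replicates 2 and 3, so genes without one had more of the total there. In the fit over all 9469 tested genes the unopposed ones stood 0.27 above replicate 2 in replicate 1 (median, log2) where all tested genes stood 0.07 above. Values scaled on unopposed genes alone are therefore given for differences between libraries.

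On that scale the excess of replicate 1 was gone and another pattern showed. Tgfb1 had 154, 136 and 211 RPKM (counts per kilobase of exon and library size, scaled on unopposed genes) in replicates 1, 2 and 3, Smad7 49.4, 47.7 and 73.4, and Ski 37.8, 31.3 and 51.1. On this scale these 3 genes were highest in replicate 3, not in replicate 1 as in TPM, and so was Tgfbr2 with 35.8, 35.7 and 43.6. Skil, by contrast, had 76.3, 97.0 and 73.2 and Smad2 26.9, 37.8 and 27.3, both highest in replicate 2, and Smad4 had 37.7, 35.8 and 27.1, lowest in replicate 3. Tgif1 hardly moved, with 69.5, 69.8 and 66.8, while Smad3 (19.8, 18.8 and 16.1) and Tgfbr1 (11.96, 10.4 and 9.999) were highest in replicate 1.

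**Figure D3:**
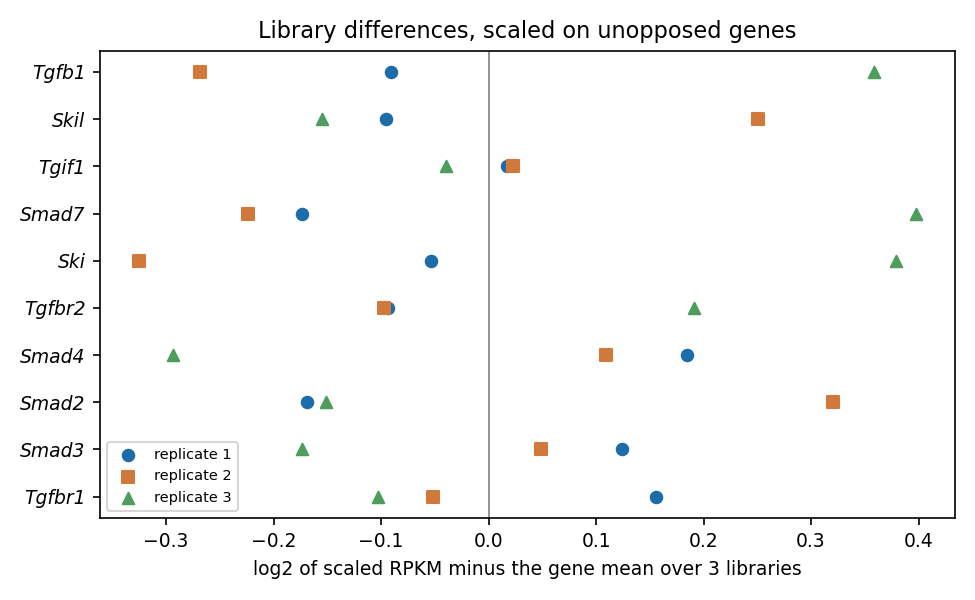
Log2 level of each gene in each library minus its mean over the 3 libraries, after scaling on genes with no gene on the other strand. On this scale, unlike in TPM, Tgfb1, Smad7, Ski and Tgfbr2 are highest in replicate 3, Skil and Smad2 in replicate 2, and the 3 values of Tgif1 nearly coincide.

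None of these differences passed the test for spread beyond the trend of genes of like abundance. In edgeR (deviance at the trended dispersion, Benjamini-Hochberg) 0 of 10 genes were called, 0 had an unadjusted p under 0.05, and 0.253% of 9469 genes were called, and with DESeq2's trend 0 of 10 were called as well. Among the 4272 tested unopposed genes 0 of 10 were called too, where 1.29% of genes were. In a trial on data simulated from the fit over all 9469 genes, the edgeR test found differences of many fold. It missed those of the size seen among the 10 genes. The fit on unopposed genes alone was not tried in this way. The absence of calls therefore does not show equal levels. Against counting noise alone, a chi-square test called 8 of the 10, where 59.6% of all tested genes were called, the exceptions being Tgfbr1 (adjusted p = 0.0504) and Smad2 (adjusted p = 0.215). Among unopposed genes it called 6 of the 10, Tgfb1, Skil, Smad7, Ski, Smad2 and Tgfbr2, where 36.0% of 4272 genes were called. In the fit over all genes it called 5 of the 10 without replicate 1, where 25.6% of tested genes were called, 6 without replicate 2, where 42.4% were, and 3 without replicate 3, where 47.3% were. The smallest adjusted p in the chi-square test over unopposed genes was that of Tgfb1, 3.02e-16, and the same gene had an unadjusted p of 0.259 in the edgeR test.

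Base composition moved with the difference between replicates 3 and 2. Smad7, Ski and Tgfb1, at 56.90%, 55.61% and 52.51% G and C in their longest transcript, were higher in replicate 3 by 0.62, 0.70 and 0.63 (log2, scaled on unopposed genes). Skil, Smad2 and Smad4, at 41.02%, 44.89% and 49.44%, differed by -0.41, -0.47 and -0.40. Others did not follow this order. Smad3, at 53.14%, differed by -0.22, Tgfbr2, at 49.64%, by 0.29, and Tgfbr1, with the least G and C at 41.00%, by -0.05. Tgif1, at 44.99%, differed by -0.06. Over 4268 unopposed genes the median difference went from -0.24 in the fifth with the least G and C to 0.21 in the fifth with the most. Spearman's rho was 0.35 over these genes and 0.64 over the 10, which share the same pair of libraries and are given as a description. The part of base composition in the differences of the 10 genes was not tested.

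**Figure D4:**
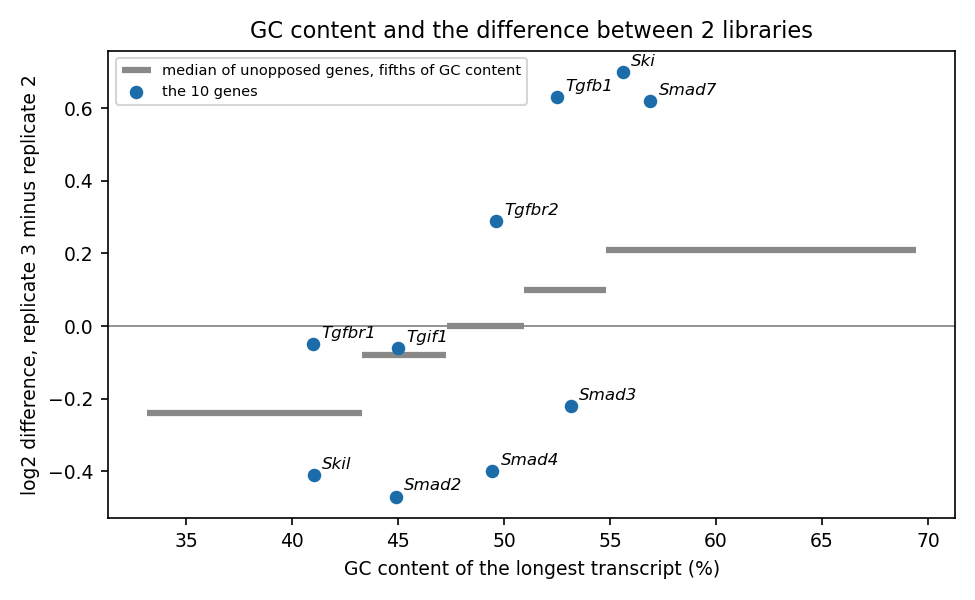
Log2 difference between replicates 3 and 2 (scaled on unopposed genes) against the GC content of the longest transcript, with the 10 genes as points and the median of unopposed genes in 5 bins of GC content as grey lines. The lines go from -0.24 to 0.21. Smad7, Ski, Tgfb1, Tgfbr2 and Tgfbr1 lie above them, Skil, Smad2, Smad3 and Smad4 lie below, and Tgif1 lies close to its line.

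The other pathway genes, 82 in 7 lists by role, gave the setting of the 10. Of these, 50 (61.0%) reached 1 TPM in every library and 12 had no count in any, against the 38.7% of protein-coding genes at 1 TPM given above, with a median of 4.66 TPM. Among the 51 with no gene on the other strand 30 did so, with a median of 4.13 TPM. Only 19 of the 82 had a mean TPM above the median of the 10.

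Tgfb1 was the one TGF-beta ligand with more than a few counts. Tgfb2 had 0, 1 and 0 counts and Tgfb3 4, 1 and 2. Of the subunits of activins and inhibins, Inha and Inhbb had no count and Inhba had 1 in replicate 1. Of 17 genes for ligands, latency and activation, 5 reached 1 TPM in every library and 5 had no count, Ltbp1, Ltbp4 and Itgb6 among them. The processing protease Furin had 11.2 ± 3.97 TPM (SD, n = 3) and is opposed by Gm44851. With no gene opposite, Gdf11 had 4.68 ± 1.15 TPM, Nrros, which presents latent TGF-beta on myeloid cells, 4.64 ± 2.34 and Lrrc32 (GARP), which presents it on regulatory T cells, 2.03 ± 0.949.

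Receptors beyond Tgfbr1 and Tgfbr2 were led by those for activins. Acvr2a, a type II activin receptor, had 15.5 ± 0.767 TPM (SD, n = 3) and is opposed by Orc4, and Acvr1b, a type I activin receptor that also acts on Smad2 and Smad3, had 9.50 ± 2.28 with no gene opposite. Eng had 6.35 ± 0.994 TPM, opposed by Fpgs, and the coreceptor Tgfbr3 3.06 ± 2.44. The list reached 1 TPM in every library for 4 of 12 genes, and Acvr2b and Bmpr1b had no count. Of the SMADs that serve bone morphogenetic proteins, Smad5 had 7.96 ± 3.25 TPM and Smad1 2.41 ± 0.996, and Smad6, their inhibitor, and Smad9 had no count. Among the inhibitory SMADs there were thus 833 summed counts of Smad7 and none of Smad6, which has no gene opposite either.

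Genes that act on the receptors and SMADs were nearly all present. In the list for turnover and anchoring 14 of 16 reached 1 TPM in every library, led by Strap (55.6 ± 33.0 TPM, SD, n = 3), a receptor-associated inhibitor, Fkbp1a (43.8 ± 18.8), which holds the type I receptor inactive, the SMAD phosphatase Ppm1a (35.8 ± 16.9) and Pmepa1 (30.1 ± 14.4), a feedback inhibitor. The ubiquitin ligases Smurf2 and Smurf1 had 13.1 ± 3.97 and 10.7 ± 2.96 TPM. All 6 are free of a gene opposite.

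Of 12 nuclear partners 11 reached 1 TPM in every library and Foxh1 had no count. Snw1, a SKI-binding splicing factor, had 118 ± 34.9 TPM (SD, n = 3) but is opposed by Slirp with 4259 and 4407 counts in replicates 1 and 2, and the corepressor Ncor1, which Ski recruits, had 80.5 ± 9.22 and is opposed by Ttc19. With no gene opposite, the deacetylase Hdac1 had 59.8 ± 18.3 TPM and Cbfb, the partner of the RUNX factors, 54.9 ± 23.9. The list of kinases that act without SMADs was led by Map2k3 at 128 ± 62.0 TPM, Map3k7 (TAK1) at 26.8 ± 9.07, Tab2 at 18.4 to 36.8 and Mapk14 (p38 alpha) at 13.0 ± 6.78, and 6 of 7 were at 1 TPM or more in every library.

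Genes known as TGF-beta targets in various cells split widely. Junb had 312 ± 109 TPM (SD, n = 3) and is opposed by Prdx2, Gadd45b had 235 ± 68.1, Id3 30.4 ± 14.7 and the cell cycle inhibitor Cdkn1a 28.0 ± 16.2, the last 3 with no gene opposite. All 4 are also induced by other signals. Cdkn2b and Tgfbi had no count and Ccn2 had 0, 0 and 1. Of 14 genes 8 reached 1 TPM in every library. The integrin gene Itgae, which TGF-beta induces in T cells, had 8, 4 and 2 counts, and Smad7 and Skil, themselves targets, had 833 and 2631 summed counts.

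**Figure D5:**
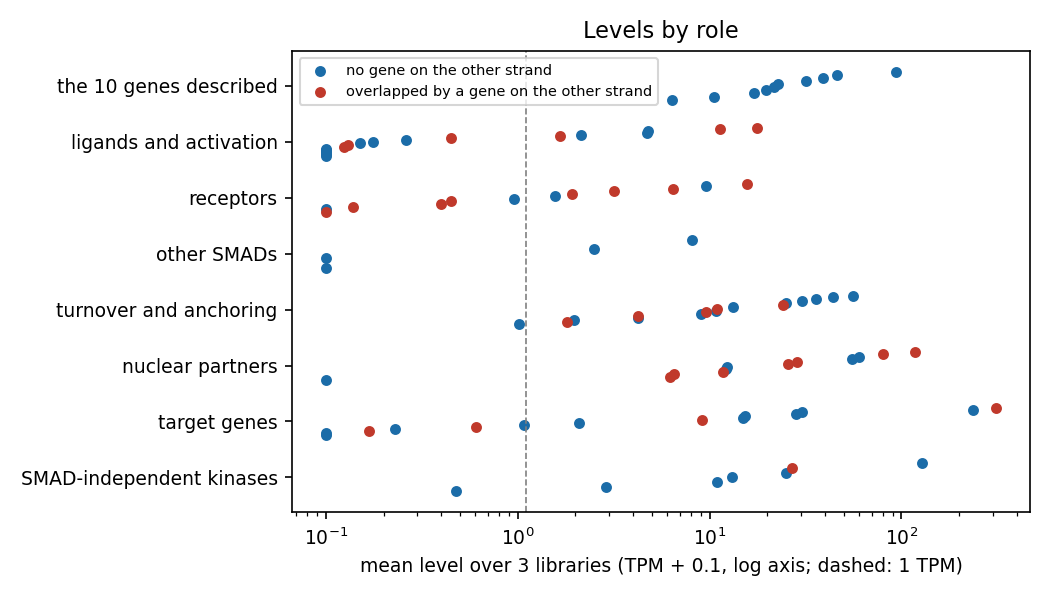
Mean level over the 3 libraries (TPM + 0.1, log axis) of the 10 genes and of the other pathway genes by role, in red where a gene on the other strand overlaps the span. The 10 genes lie between 6.27 and 94.1 TPM and none is red, and the lists for ligands, receptors and targets reach down to genes with no count.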

How the data were processed

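The deposited files hold raw counts of read pairs per gene. Per the file headers, pairs were aligned with a step named star2 in a stranded paired-end run and those with both ends aligned were counted over exons of GENCODE vM13 genes with featureCounts 1.4.6-p4 at strand setting 1. Per the labels the assembly is mm10 and the assay total RNA-seq, while the linked library protocol is named for poly(A)+ RNA.

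Symbols came from GENCODE M21, which named 50376 of 50600 genes (99.56%), and all 132 list entries matched. TPM, CPM and RPKM were computed here from the deposited counts and exon lengths. Overlaps on the other strand (1 base or more) were found with bedtools 2.31.1 in the files' coordinates. Spread was modelled in edgeR 4.0.16 (TMM, filterByExpr at a minimum count of 10, intercept only), which was tried on simulated data, and in DESeq2 1.42.0. Ratios used log2(TPM + 0.1). Named genes are the 10 members, the leading 4 of each list, and genes of each list with no count, and others were named after their values were seen. Some genes that the rule names are not reported here. The members, lists and tests were chosen with earlier results of these data known. The comparisons by GC content and promoter motif were added after the counts were seen.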

Additional observations from a re-analysis of the deposited data

How the results depend on the processing

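The count of the 10 genes beyond the dispersion trend was 0 under all 8 alternatives run. In data simulated from the fit over all genes that test missed differences of the size seen here, so the repeated 0 says little. The alternatives were not tried on simulated data. Beyond counting noise it was 8, and 3 to 6 when 1 library was left out, where 25.6% to 47.3% of all tested genes were called. The median level of 22.8 TPM became 12.3 as RPKM with TMM scaling, 73.2 as CPM without length correction and 91.7 as TPM over genes with no opposed exon, by construction of these units, so absolute levels depend on the denominator. Without length correction the mean log2 ratios became -2.15 for Tgfbr1 to Tgfbr2, 0.10 for Smad2 to Smad3, -0.76 for Smad4 to Smad2 plus Smad3, -1.86 for Ski to Skil, -1.40 for Tgif1 to Ski plus Skil and 1.11 for Tgfb1 to the receptors. Divided by whole gene span they became 2.22 for Smad7 to Smad4, -3.17 for Ski to Skil, 3.32 for Tgfb1 to the receptors and 0.37 for Tgif1 to Ski plus Skil, a change of sign for the last. Among 8 further pairs of neighbours in the order, Skil to Tgif1 turned to -0.53 and Smad3 to Tgfbr1 to -0.33 by gene span, and 9 of 48 alternatives moved a ratio by more than its SD without turning the sign of a pair called apart, Tgfb1 to Skil to 0.07 without length correction among them. Apart from these pairs, 63 of 78 alternatives moved no count by over 1.5 times and no value by more than its SD. Of these, the pathway genes at 1 TPM or more numbered 50 to 52 without 1 library and 38 at 5 TPM. Depth limits the genes with few counts, where 3 counts are the floor. No paired analysis was possible because there is 1 group.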
